A study of Rattus norvegicus with 7 samples.

Results

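The let-7 family loci of the rat retina were 9 of the 571 features annotated as miRNA, in a deposited table of 5491 noncoding RNA features. They were chosen by gene symbol: Mirlet7a1, Mirlet7b, Mirlet7c-1, Mirlet7c-2, Mirlet7d, Mirlet7f1, Mirlet7f-2, Mirlet7g and Mirlet7i. All 9 of 9 had a level at every age, and no filter on low values was applied to them. Retinas came from untreated rats of the strain Wistar WU, an albino outbred laboratory rat, at 7 ages, the postnatal days P1, P3, P5 and P7 and then P10, P15 and P21, with birth on P0. RNA from 3 retinas was pooled at each age and its small RNA was sequenced on an Ion Torrent instrument. The study's methods state that the pools were sequenced in repeat runs, and the table gives 1 value for each age, which may merge them. The spread between animals is therefore unknown and no difference has a replicate check. Levels are FPKM, fragments per kilobase of feature and per 1000000 mapped fragments. Differences between ages are differences of log2(FPKM + 1), and the 95% intervals beside them cover counting error only. Estimated alignments scaled to 1000000 miRNA alignments of the same library are given as ppm. In a whole retina, fewer cells of a type and less RNA per cell cannot be told apart.

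let-7 was found in the nematode as a gene that times the passage from larval to adult cell fates, and its mature sequence is conserved from worms to mammals. In vertebrates mature let-7 accumulates as progenitor cells stop dividing and differentiate, and it represses growth and timing genes such as Lin28, Hmga2 and cell cycle regulators. LIN28 proteins in turn block the maturation of let-7 precursors, and in the retina let-7 acts with mir-125 in the shift of progenitors from early-born to late-born cell types.

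The mature sequences are shown because the family is defined by them and because loci that share one cannot be separated by their reads. They come from RefSeq (GRCr8), in which all 9 loci were matched, 5 by symbol and 4 by a synonym. Capitals mark the seed, bases 2 to 8 from the 5′ end, through which a miRNA pairs with its targets.
let-7a-5p, from Mirlet7a1: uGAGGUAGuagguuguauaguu
let-7b-5p, from Mirlet7b: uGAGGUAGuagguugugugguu
let-7c-5p, from Mirlet7c-1 and Mirlet7c-2: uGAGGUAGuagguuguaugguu
let-7d-5p, from Mirlet7d: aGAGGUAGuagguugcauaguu
let-7f-5p, from Mirlet7f-2 and the hairpin opposite to Mirlet7f1: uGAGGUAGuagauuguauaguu
let-7g-5p, from Mirlet7g: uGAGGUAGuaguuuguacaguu
let-7i-5p, from Mirlet7i: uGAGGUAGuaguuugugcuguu
miR-98-5p, from Mir98: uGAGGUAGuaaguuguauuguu
The seed GAGGUAG was the same in all of them, and 7 different let-7 sequences of 22 bases were assigned to the 9 loci by name. For Mirlet7f1 the sequence is that of the hairpin on the other strand, since the listed locus lies opposite to it. Mirlet7i was on the plus strand in the table and on the minus strand in RefSeq, which uses another build. No other miRNA gene overlapped it in RefSeq, and the reason for the difference was not tested. Outside the seed the mature sequences differed at few positions. Counted from the 5′ end and with the base of let-7a first, let-7c had A19G, let-7f had G12A, and let-7b had A17G and A19G. let-7d had U1A and U16C, and let-7g had G12U and U18C. let-7i was the farthest from let-7a with 4 differences, G12U, A17G, U18C and A19U, and it shared G12U and U18C with let-7g. In RefSeq the seed was found in 9 mature names, those shown and let-7e-5p. Mir98 was listed in the table, whereas Mirlet7e, Mirlet7a2 and Mir202 were not listed under these symbols.

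Positions are those of the deposited table on the build Rnor_6.0. Mirlet7a1 (chr17:16417855-16417954), Mirlet7f1 (chr17:16418217-16418313) and Mirlet7d (chr17:16419980-16420077) formed a cluster, within a long noncoding RNA gene in RefSeq. Mirlet7c-2 (chr7:126590212-126590306) and Mirlet7b (chr7:126590627-126590711) lay 320 bases apart, and no RefSeq gene other than miRNAs enclosed them. Mirlet7c-1 (chr11:16052868-16052975) lay 634 bases from Mir99a, within another long noncoding RNA gene. Mirlet7f-2 (chrX:21583272-21583354) lay 520 bases from Mir98, and both were within Huwe1, the gene of a ubiquitin ligase. Mirlet7g (chr8:114874454-114874550) lay in RefSeq within the intervals of Wdr82, a gene of a histone methyltransferase complex, and Rpl29, a ribosomal protein gene. Mirlet7i (chr7:66802732-66802821) lay within an uncharacterised RefSeq gene. Neither had another listed miRNA within 10 kb. In the order named in the opening, their Ensembl identifiers are ENSRNOG00000035632.2, ENSRNOG00000035636.1, ENSRNOG00000035500.2, ENSRNOG00000035461.1, ENSRNOG00000035594.1, ENSRNOG00000035538.2, ENSRNOG00000035464.1, ENSRNOG00000050242.1 and ENSRNOG00000035642.2. No feature of the table overlapped any of the 9 loci. Whether the loci are exonic or intronic was not analysed here.

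The depth of each library was estimated from the steps between its low FPKM values. By this estimate the libraries held 301772 alignments at P1, 502418 at P3, 419060 at P5 and 602732 at P7, and then 457101 at P10, 454289 at P15, with 1680083 at P21. P1 had a single step, and the other depths take equal signal in each step. If 1 step held all of it, the depth would lie between 337550 and 667287 at P3, 281062 and 557058 at P5, 486871 and 718593 at P7, 201719 and 712482 at P10, 128407 and 780170 at P15, and 1490224 and 1803808 at P21. The alignment counts of a library carry the same uncertainty. The let-7 loci took 10444 of these at P1, 9992 at P3, 13506 at P5 and 14445 at P7, and then 17501 at P10, 13279 at P15, with 49642 at P21. The least covered locus at P1 was Mirlet7c-2 with 263 alignments and the most covered was Mirlet7g with 2764, and counting intervals were widest for Mirlet7b and the let-7c loci.

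The summed level of the 9 loci stayed within little more than a 2-fold range. It was 591231 FPKM at P1, 617792 at P3, 739209 at P5 and 464060 at P7, and then 939149 at P10, 652510 at P15 and 887619 at P21. As deposited P7 was lowest and P10 highest, whereas the highest age was P3 with each library scaled to its miRNA total, P21 with TMM (trimmed mean) scaling and P1 in ppm, where it was P10 with the 3 mir-124 loci counted as 1. P10 was above the neighbouring P7 in all 5 scalings tried, with a log2 difference of 1.02 (95% interval 0.98 to 1.06) as deposited. P15 was below P10 in all 5 as well, with a log2 difference of -0.53 (-0.57 to -0.48) as deposited. P1 and P3 were close, with a log2 difference of 0.06 (0.02 to 0.11) as deposited and -0.19 (-0.23 to -0.15) in ppm.

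Over the whole period the sum was higher at P21 than at P1 by 0.59 (0.55 to 0.62) on the log2 scale, a direction that held with median-of-ratios scaling (0.66) and TMM scaling (0.73) of the libraries but not with each library scaled to its miRNA total (-0.04) or in ppm of the estimated miRNA alignments (-0.51). The share of let-7 in all miRNA alignments was 5.86% at P1, 5.13% at P3, 5.17% at P5 and 4.17% at P7, and then 5.48% at P10, 3.97% at P15, with 4.12% at P21. The interval was 5.75% to 5.97% at P1 and 4.09% to 4.16% at P21. The share of the miRNA FPKM sum was 3.14% at P1 and 3.06% at P21. The total of the alignments depends on how shared reads were counted. The 3 mir-124 loci held 8.21% of the miRNA alignments at P1 and 47.6% at P21, with ratios to each other between 0.981 and 1.02. Their estimated alignments were near-equal but not the same, with 191160, 192266 and 190311 at P21. Their reads may be counted at all 3 or each placed at 1 of them, which was not tested. If each was placed at 1 locus, counting the loci as 1 leaves out reads. With these loci counted as 1, by their mean, the let-7 share was 6.20% at P1, 5.95% at P3, 6.68% at P5 and 5.68% at P7, and then 7.13% at P10, 5.50% at P15, with 6.04% at P21, and the log2 difference of P21 against P1 was -0.04. With the let-7c and let-7f loci also counted as 1 each, the share was 5.35% at P1 and 5.16% at P21. The share was lower at P21 than at P1 under each of these counts, by a smaller gap with the mir-124 loci counted as 1. All log2 differences of P21 against P1 in ppm, of let-7 and of other miRNAs, would be higher by 0.47 with the mir-124 loci counted as 1, so signs and 2-fold counts in ppm depend on this choice.

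A factor applied to a whole library shifts the let-7 sum and the other miRNAs alike, so the sum was also set against the median of all 571 miRNA features. That median log2 difference of P21 against P1 was -0.05 as deposited, -0.67 with miRNA-total scaling, 0.03 with median-of-ratios, 0.10 with TMM and -1.02 in ppm. The let-7 sum was above the median by 0.64 as deposited, which the other scale factors leave nearly in place, and by 0.51 in ppm, where loci are weighted by alignments. The sum is weighted to Mirlet7g, and the median of the 9 single loci as deposited was 0.02. Relative to the median miRNA, the sum as deposited was above its P1 position at P3 by 0.14 and at P5 by 0.34. It was below that position at P7 alone, by -0.18, and above it at the later ages, by 0.71 at P10.

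**Figure D1:**
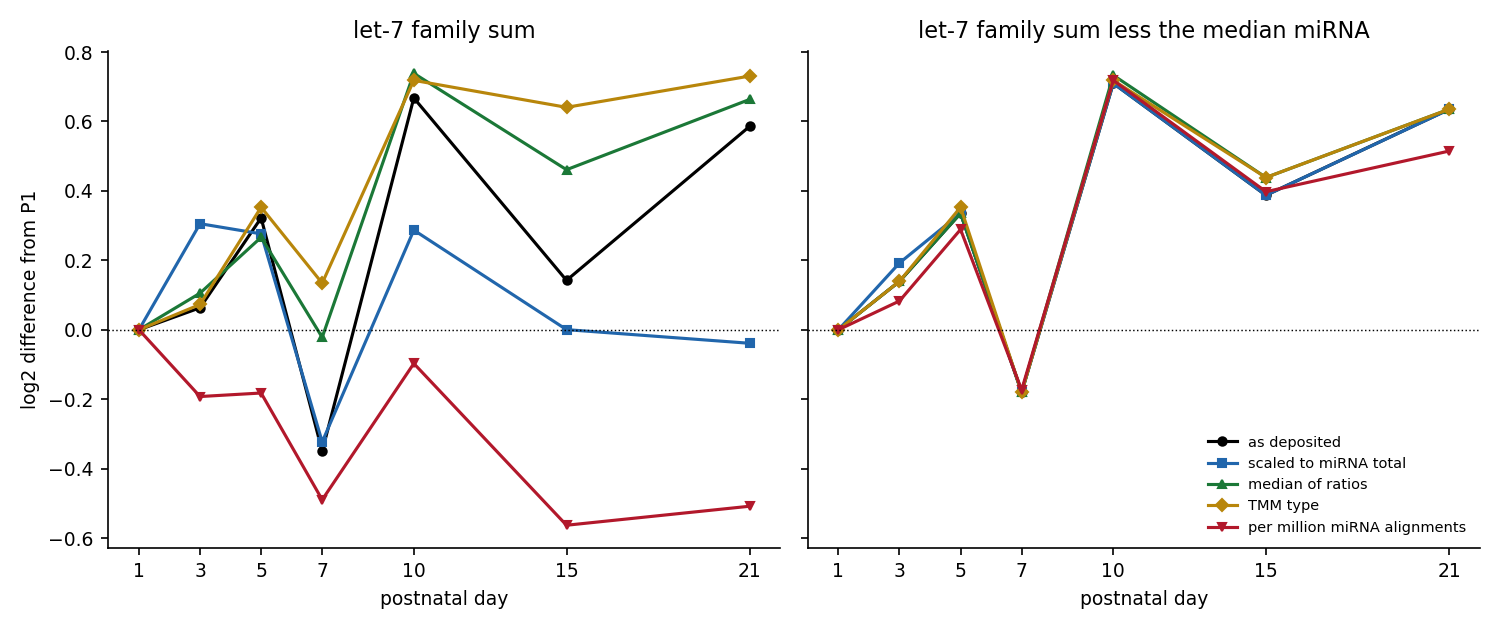
Log2 difference of the let-7 family sum from P1 against postnatal day, on the deposited scale and with 4 other scalings of the libraries (left), and the same after subtracting the median log2 difference of all 571 miRNA features (right). On the left P21 spans -0.51 to 0.73, with the sign set by the scaling, and on the right, where the subtraction removes most of a scale factor, it is 0.64 as deposited and 0.51 in ppm.

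The log2 differences of single loci between P1 and P21 spread from -0.89 to 1.18 as deposited, around the 0.59 of their sum, with the sign of 5 of them depending on the scaling. A share within one library does not depend on the scaling between libraries, so shares of the family sum are given beside the levels.

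Mirlet7g, the source of let-7g, led the family at every age. Its level was 204589 FPKM at P1, 232516 at P3, 305698 at P5 and 188037 at P7, and then 339696 at P10, 248490 at P15 and 462272 at P21. Its share of the family FPKM was 34.6% at P1, 37.6% at P3, 41.4% at P5 and 40.5% at P7, and then 36.2% at P10, 38.1% at P15 and 52.1% at P21, with intervals of 33.6% to 35.6% at P1 and 51.6% to 52.6% at P21. It was thus highest in both level and share at the oldest age. The log2 difference of P21 against P1 was 1.18 (1.12 to 1.23), the largest among the 9 loci. It stayed above 0 in all 5 scalings, from 0.18 in ppm to 1.32 with TMM. Between P15 and P21 alone the log2 difference was 0.90 (0.83 to 0.96).

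The share of Mirlet7i was smaller at P21 than at P1, where that of Mirlet7g was larger. Its product differs from let-7g by A17G and A19U alone, with the base of let-7g first. The level of Mirlet7i was 135139 FPKM at P1, 120857 at P3, 114289 at P5 and 52009 at P7, and then 97694 at P10, 61160 at P15 and 104487 at P21. Its share of the family FPKM was 22.9% at P1, 19.6% at P3, 15.5% at P5 and 11.2% at P7, and then 10.4% at P10, 9.37% at P15 and 11.8% at P21, with intervals of 21.9% to 23.8% at P1 and 11.4% to 12.1% at P21. The share was smaller at each age up to P15 than at the one before, with overlapping intervals for P7 and P10 and for P10 and P15. Against P1 the log2 difference was -1.38 (-1.49 to -1.27) at P7, -1.14 (-1.30 to -0.99) at P15 and -0.37 (-0.45 to -0.29) at P21. The P21 value was below 0 in all 5 scalings, from -1.37 to -0.23. The ratio of Mirlet7g to Mirlet7i in FPKM was 1.51 at P1, 1.92 at P3, 2.67 at P5 and 3.62 at P7, and then 3.48 at P10, 4.06 at P15 and 4.42 at P21. This ratio was 2.92 times larger at P21 than at P1, a log2 difference of 1.55 (1.45 to 1.65) that no scaling between libraries can alter.

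Mirlet7f-2, on the X chromosome, was second to Mirlet7g in FPKM from P3 on. This rank did not hold in estimated alignments at P3, where Mirlet7i had 1409, Mirlet7a1 1308 and Mirlet7f-2 1254. Its level was 113540 FPKM at P1, 122375 at P3, 162988 at P5 and 102446 at P7, and then 253208 at P10, 178136 at P15 and 186978 at P21. It was highest at P10, and at P10 and P15 it held its largest shares of the family FPKM, 27.0% and 27.3%, against 19.2% at P1 and 21.1% at P21. It was 2.47 times higher at P10 than at P7 in FPKM, and in ppm the log2 difference was 0.66 (0.57 to 0.75). Against P1 it was 0.72 (0.63 to 0.81) at P21, above 0 in 4 of 5 scalings and -0.28 in ppm. Mirlet7f1 had 15399 FPKM at P1, 13948 at P3, 20315 at P5 and 13000 at P7, and then 33415 at P10, 22084 at P15 and 24130 at P21. Its course was close to that of Mirlet7f-2 at an FPKM several times lower but with near-equal estimated alignments, and P21 was above P1 in the same 4 of 5 scalings.

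Mirlet7a1, a source of let-7a, had 50465 FPKM at P1, 36450 at P3, 41060 at P5 and 30570 at P7, and then 68707 at P10, 45807 at P15 and 31796 at P21. It was high at P1 and P10 and low at P7 and P21. Its share of the family FPKM was 8.54% at P1 (8.14% to 8.93%) and 3.58% at P21 (3.47% to 3.69%). Its log2 difference of P21 against P1 was -0.67 (-0.75 to -0.59) and lay below 0 in all 5 scalings. Mirlet7d, 2025 bases away on the same strand, had 21569 FPKM at P1, 26259 at P3, 30319 at P5 and 22318 at P7, and then 32031 at P10, 25746 at P15 and 34225 at P21. Its range was the narrowest of the 9 loci, with the highest age 1.59 times the lowest, and P21 was above P1 in 4 of 5 scalings but not in ppm (-0.33). The FPKM ratio of Mirlet7d to Mirlet7a1 was 0.427 at P1, 0.720 at P3, 0.738 at P5 and 0.730 at P7, and then 0.466 at P10, 0.562 at P15, with 1.08 at P21. The log2 difference in this ratio between P1 and P21 was 1.33 (1.20 to 1.47). The value of Mirlet7a1 may hold let-7a reads of another locus, so the ratio is one of values and not of the output of the cluster.

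Mirlet7b had 14122 FPKM at P1, 20551 at P3, 20318 at P5 and 14950 at P7, and then 28638 at P10, 13886 at P15 and 7630 at P21. It had the widest range of the family, 3.75 times from the lowest to the highest age, and at P21 it held 0.860% of the family FPKM (0.785% to 0.934%), against 2.39% (2.11% to 2.66%) at P1. Its log2 difference was -1.91 (-2.10 to -1.72) from P10 to P21 and -0.89 (-1.10 to -0.68) from P1 to P21, and the latter was below 0 in all 5 scalings. Its cluster partner Mirlet7c-2 had 20916 FPKM at P1, 25778 at P3, 25118 at P5 and 23592 at P7, and then 51624 at P10, 32249 at P15 and 21233 at P21. Mirlet7c-1 had 15493 at P1, 19059 at P3, 19103 at P5 and 17138 at P7, and then 34136 at P10, 24951 at P15 and 14869 at P21. Both let-7c loci were highest at P10. Their log2 differences of P21 against P1 as deposited, 0.02 (-0.18 to 0.22) for Mirlet7c-2 and -0.06 (-0.26 to 0.14) for Mirlet7c-1, were within counting error of 0, and their sign depended on the scaling. The FPKM ratio of Mirlet7c-2 to Mirlet7b was 1.48 at P1 and 2.78 at P21, a log2 difference of 0.91 (0.62 to 1.20).

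**Figure D2:**
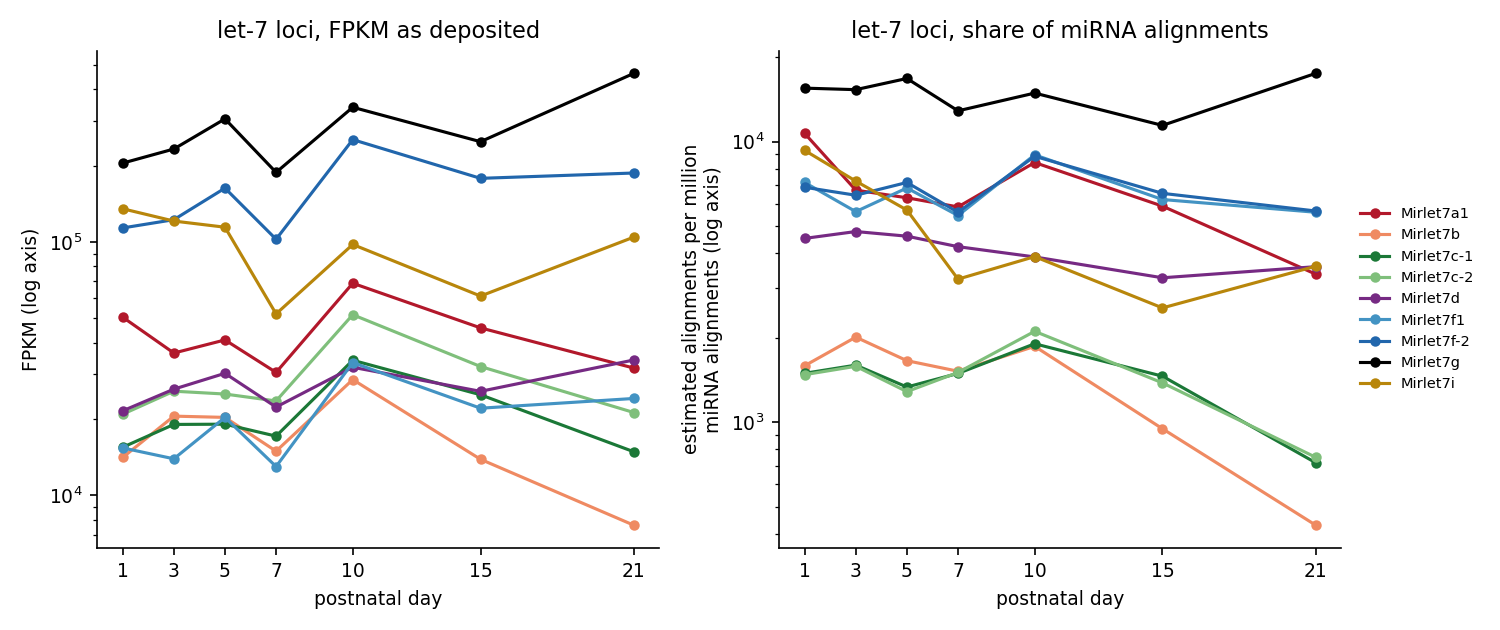
Level of each of the 9 let-7 loci against postnatal day, in FPKM as deposited (left) and in estimated alignments in ppm of the miRNA alignments (right), both on log axes, with 1 point per library. Mirlet7g is the top line in both panels, and Mirlet7b ends lowest, at 7630 FPKM.

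**Figure D3:**
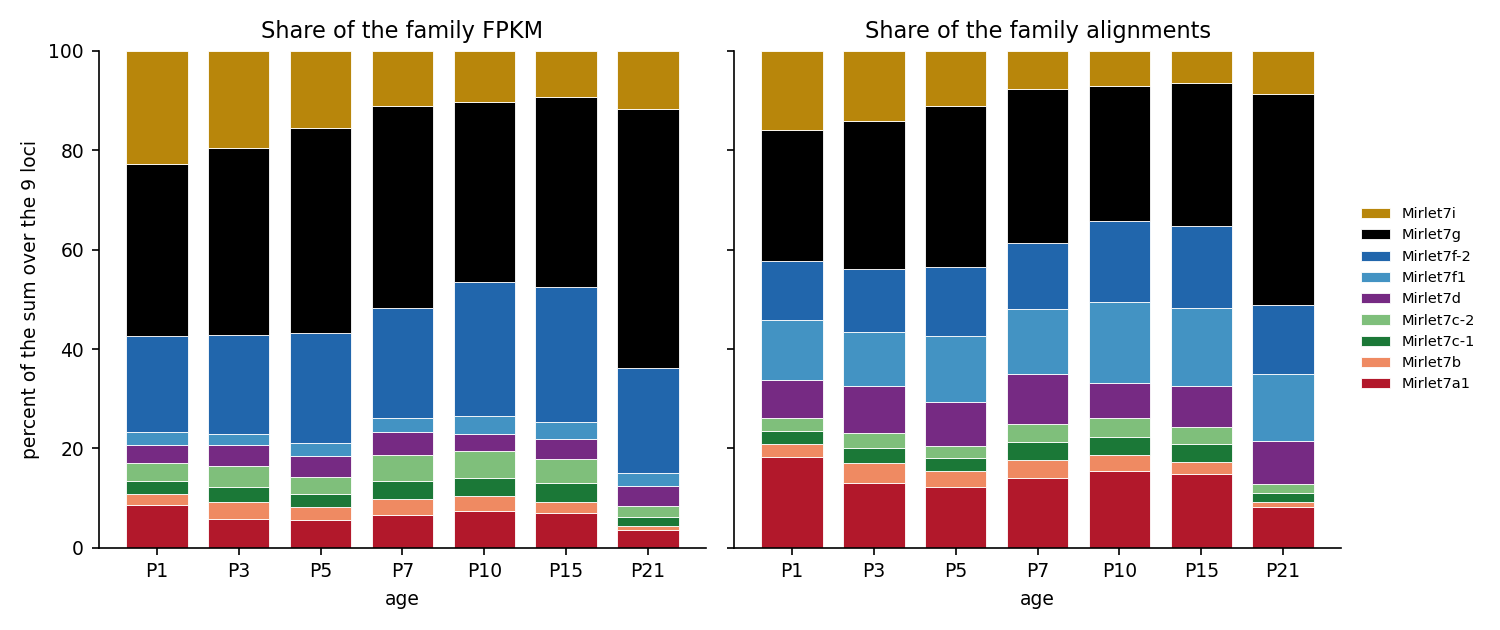
Share of each locus in the sum over the 9 let-7 loci at each age, by FPKM (left) and by estimated alignments (right), as stacked bars that add up to the whole. The share of Mirlet7g is 34.6% at P1 and 52.1% at P21 by FPKM, and 26.5% and 42.5% by alignments.

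The loci shared their high and low ages in part. The highest FPKM as deposited was at P10 for 6 of the 9 loci, at P21 for Mirlet7d and Mirlet7g, and at P1 for Mirlet7i. The lowest was at P7 for 5 loci, at P1 for 2 and at P21 for 2. The shares of all miRNA features with these highest and lowest ages are not given here, so the counts only describe the loci. All 9 loci were higher at P10 than at P7, by 0.52 for Mirlet7d to 1.36 for Mirlet7f1 on the log2 scale, except that in ppm Mirlet7d had -0.12 (-0.24 to 0.00115). Of all 571 miRNA features, 52.0% were higher at P10 than at P7 as deposited and 35.9% in ppm.

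The counts of let-7 loci past 2-fold are given beside the share of all miRNA features past it. From P1 to P21 only Mirlet7g, 1 of 9, was at least 2-fold higher as deposited, where 31.5% of the 571 miRNA features were. None of the 9 was at least 2-fold lower, where 32.9% of the miRNA features were, and the median of the 9 was 0.02 beside -0.05 for all. From P7 to P10, Mirlet7a1, Mirlet7c-2, Mirlet7f1 and Mirlet7f-2, 4 of 9, were at least 2-fold higher, against 25.9% of the features, and the median of the 9 was 0.99 beside 0.09 for all. In ppm none of the 9 was at least 2-fold higher from P7 to P10, against 10.5% of the features, and the medians were 0.35 and -0.51. From P15 to P21 none of the 9 was, against 32.4% as deposited and 22.9% in ppm. In ppm, Mirlet7a1, Mirlet7b, Mirlet7c-1 and Mirlet7i, 4 of 9, were at least 2-fold lower at P21 than at P1, against 50.3% of the features, and none was at least 2-fold higher, against 17.9%. The median of the 9 on that scale was -0.98 and that of all features was -1.02.

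The levels of different loci in FPKM could not be read as amounts of miRNA. The length used for FPKM was an interval that for some loci was longer than the annotated gene, 244 bases for Mirlet7f1 against 79 for Mirlet7f-2. At P1, 1 alignment was worth 12.1 FPKM at Mirlet7f1 and 92.7 FPKM at Mirlet7f-2, a ratio of 7.67 where the lengths differ by 3.09 times. In estimated alignments the loci with the same mature sequence were nearly equal. Mirlet7f1 and Mirlet7f-2 had 1274 and 1225 alignments at P1, 2866 and 2832 at P10, and 6744 and 6815 at P21. Their ratio was between 0.874 and 1.04 over the 7 ages, and its interval held 1 at 6 of them, all but P3. Mirlet7c-1 and Mirlet7c-2, which lie on different chromosomes, had 266 and 263 alignments at P1, 608 and 673 at P10, and 862 and 902 at P21. Their ratio was between 0.903 and 1.06, and its interval held 1 at all 7 ages. For comparison, the ratio of Mirlet7g to Mirlet7i, with different mature sequences, was between 1.67 and 4.87. How reads that match several loci were assigned is not given in the sources used here, so the output of loci with the same mature sequence cannot be told apart, and the family sum may hold a read at more than 1 locus.

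**Figure D4:**
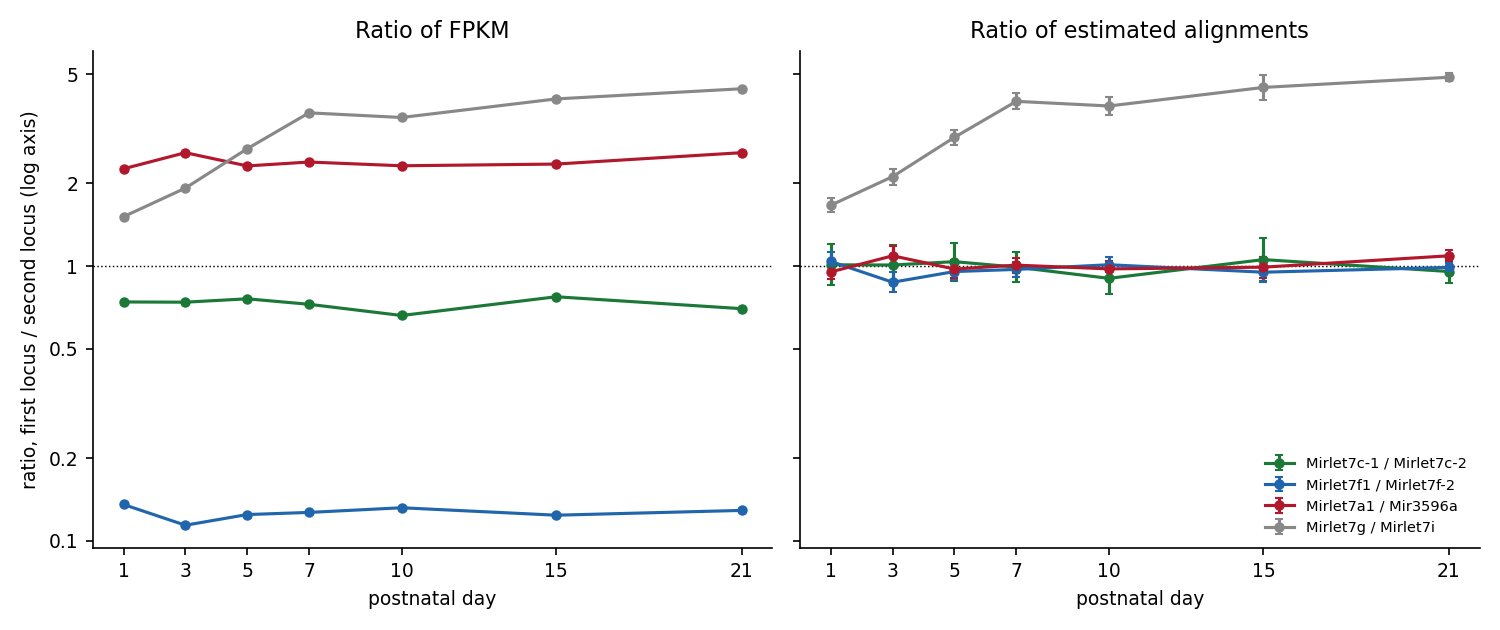
Ratio of the levels of pairs of loci against postnatal day, in FPKM (left) and in estimated alignments with 95% counting intervals (right), on log axes with a dotted line at 1. The 3 pairs that share a mature sequence, or its complement, lie between 0.874 and 1.09 in alignments, whereas Mirlet7g over Mirlet7i lies between 1.67 and 4.87.

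The alignments were also grouped by mature sequence. let-7g held 26.5% of the family alignments at P1, 29.9% at P3, 32.5% at P5 and 30.8% at P7, and then 27.2% at P10, 28.8% at P15, with 42.5% at P21. The let-7f loci together held 23.9% at P1, 23.5% at P3, 27.1% at P5 and 26.5% at P7, and then 32.6% at P10, 32.2% at P15 and 27.3% at P21. This is more than let-7g at P10 and P15, but each let-7f locus alone held less than let-7g, with 16.4% and 16.2% at P10 and 15.7% and 16.5% at P15, and whether a read was counted at both is not given. let-7a held 18.2% at P1 and 8.17% at P21, let-7i 15.9% and 8.72%, and let-7d 7.71% and 8.69%. The let-7c loci together held 5.07% at P1 and 3.55% at P21, and let-7b 2.71% and 1.04%. Among all 571 miRNA features Mirlet7g was 13th by mean ppm and 15th by mean FPKM, so no let-7 locus was among the 10 highest by FPKM, which were Mir124-1, Mir124-3, AC135674.1, Mir124-2, Mir19b2, Mir30d, Mir101a, Mir19b1, Mir19a and AC136163.1. AC135674.1 and AC136163.1 had intervals of 9 and 12 bases, and miRNA features with intervals under 17 bases held 31.3% of the miRNA FPKM but 0.194% of the miRNA alignments at P1.

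Mirlet7f1 stands in the table on the minus strand, opposite to Mirlet7a1 and Mirlet7d. In RefSeq this locus is the hairpin on the strand opposite to the let-7f hairpin, and its annotated mature miRNA, miR-3596d, is complementary to bases 1 to 20 of let-7f-5p. A pair of other listed loci, chosen after their values were seen, has the same arrangement: Mir3596a (chr8:45753254-45753367, minus strand) lies opposite to Mirlet7a-2 in RefSeq, and Mir3596c (chr1:59704372-59704488, minus strand) opposite to Mirlet7e. Their annotated sequences are shown with the complement of the let-7 seed in capitals.
miR-3596d, annotated at Mirlet7f1: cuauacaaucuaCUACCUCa
miR-3596a, annotated at Mir3596a: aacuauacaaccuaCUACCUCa
miR-3596c, annotated at Mir3596c: acuauacaaccucCUACCUCa
Mir3596a had 2000 estimated alignments at P1, 1199 at P3, 1689 at P5 and 2008 at P7, and then 2752 at P10, 1987 at P15 and 3720 at P21. Mirlet7a1 had 1906, 1308, 1649, 2025, 2690, 1970 and 4057 at the same ages, so the pair were within 0.953 to 1.09 of each other, with an interval holding 1 at 5 of 7 ages. Whether the authors' counting kept the strands apart is not given in the sources used here, and reads of a let-7 and of its opposite strand cannot be told apart in these values. Mirlet7d also overlaps another miRNA gene in RefSeq, Mir3596b, and whether its value holds reads of that gene was not tested. With Mir3596a and Mir3596c added to the 9 loci, the family share of miRNA alignments was 7.79% at P1 and 4.60% at P21, and the log2 difference of the FPKM sum was 0.52.

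The values of neighbouring miRNAs were set against those of the let-7 loci. For Mirlet7c-1 and Mirlet7f-2, whose mature sequences are shared with another locus, the ratios are of values and not of the output of the neighbouring loci alone. Mir99a, Mir99b and Mir100 belong to the mir-99 family and Mir125a and Mir125b1 to the mir-125 family, both of which share conserved clusters with let-7. Mir99a, 634 bases from Mirlet7c-1 on the same strand, had 5042 FPKM at P1, 27558 at P3, 54344 at P5 and 79862 at P7, and then 47208 at P10, 54956 at P15, with 309489 at P21. The log2 FPKM ratio of Mir99a to Mirlet7c-1 was -1.62 at P1, 0.53 at P3, 1.51 at P5 and 2.22 at P7, and then 0.47 at P10, 1.14 at P15, with 4.38 at P21. The ratio was 64.0 times higher at P21 than at P1 (log2 interval 5.54 to 6.46), with 46 alignments of Mir99a at P1. Mir98, the seed relative beside Mirlet7f-2, had 2828 FPKM at P1, 2663 at P3, 2705 at P5 and 1222 at P7, and then 4177 at P10, 2837 at P15 and 1247 at P21. It was highest at P10 and low at P7, as Mirlet7f-2 was, and low also at P21. The ratio of Mirlet7f-2 to Mir98 was 40.1 at P1 and 150 at P21, which was 3.73 times higher (log2 interval 1.59 to 2.22).

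Ratios were also taken beside the opposite-strand loci. Mir3596a and Mir3596c may hold reads of the let-7 on the other strand, and Mir3596a was near Mirlet7a1 in alignments. These ratios too are of values and not of the output of the neighbouring loci alone. Mir99b, 86 bases from Mir3596c, had an FPKM ratio to it of 1.66 at P1 and 13.1 at P21, and Mir125a, 338 bases from it, had one of 1.52 and 16.5. On chromosome 8 Mir125b1, 44.9 kb from Mir3596a, had a ratio to it of 0.478 at P1 and 10.0 at P21. Mir100, 6.23 kb from Mir3596a, had 3 alignments at P1 and 482 at P21, and the log2 difference of its ratio to Mir3596a was 6.43 (4.79 to 8.07). The mature sequences of these partners are shown because their seeds, in capitals, are not that of let-7.
miR-99b-5p, from Mir99b: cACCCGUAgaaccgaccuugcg
miR-100-5p, from Mir100: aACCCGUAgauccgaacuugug
miR-125a-5p, from Mir125a: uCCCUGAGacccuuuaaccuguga

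**Figure D5:**
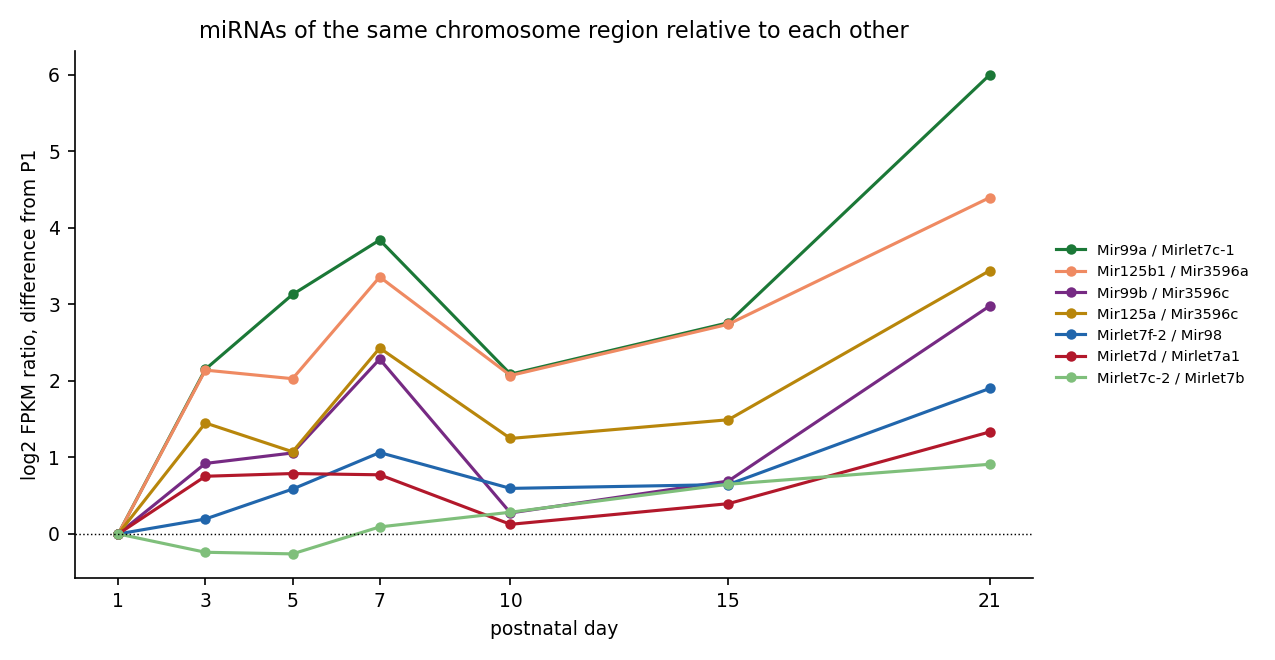
Log2 FPKM ratio of pairs of miRNAs of one chromosome region against postnatal day, as the difference from P1, so that a line at 0 would mean a fixed ratio; Mir100 over Mir3596a is not drawn. Of the pairs drawn, Mir99a over Mirlet7c-1 is highest at P21, Mir125b1 over Mir3596a is at 4.39 and Mirlet7c-2 over Mirlet7b at 0.91.

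The 5 miRNA features nearest in profile to the let-7 sum, by the root-mean-square difference of mean-centred log2(FPKM + 1) over 7 ages, were Mir154 (0.162), Mir30d (0.186), Mir128-2 (0.203), Mir3576 (0.204) and Mir7a-2 (0.222). The median over the 559 features compared was 0.926. Mir30d was the best covered of these, with 545853 FPKM at P1, 485376 at P7, 666469 at P10 and 643346 at P21. The let-7 loci are parts of the sum, and Mirlet7g is its largest part, so their distances are a description. The distance to the sum was 0.148 for Mirlet7d and 0.179 for Mirlet7g, but 0.452 for Mirlet7i and 0.630 for Mirlet7b.

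Groups of other miRNAs, chosen by name, were set beside the let-7 sum, and their part in the let-7 values was not tested. The most abundant member named for a list is the one with the highest mean ppm. Counts past 2-fold compare P21 with P1 in FPKM as deposited, where 31.5% of all miRNA features were at least 2-fold higher, 32.9% at least 2-fold lower, and the median log2 difference was -0.05. In ppm these were 17.9%, 50.3% and -1.02, and the counts and medians of the lists in ppm are given second. The let-7 sum in ppm was 58619 at P1, 51304 at P3, 51666 at P5 and 41750 at P7, and then 54805 at P10, 39679 at P15, with 41215 at P21. The timing partners Mir99a, Mir99b, Mir100, Mir125a and Mir125b1, 5 listed of 6 names, were all at least 2-fold higher, with a median log2 difference of 3.53, and in ppm 4 were, with a median of 2.53. Their sum in ppm was 4299 at P1, 7863 at P3, 8088 at P5 and 18016 at P7, and then 7694 at P10, 7901 at P15 and 19245 at P21, with Mir125a the most abundant by mean ppm over the ages but Mir99a at P21. This sum was highest at P21 and next highest at P7, whereas the let-7 sum in ppm was highest at P1, or at P10 with the mir-124 loci counted as 1. The 9 loci of the mir-17-92 and mir-106b-25 clusters, which promote proliferation, were all at least 2-fold lower on both scales, with medians of -2.26 and -3.26 and Mir19b1 the most abundant. Their sum in ppm was 193716 at P1, 128860 at P3, 104938 at P5 and 65466 at P7, and then 51102 at P10, 29926 at P15 and 19955 at P21. In ppm it was lower at each age than at the one before, whereas in FPKM as deposited it was 1221060 at P7 and 1469010 at P10, higher at P10 as the let-7 sum was.

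The lists also held markers of the cell types a retina contains or may carry with it. Of the 8 neuronal miRNAs, led by Mir124-2, 6 were at least 2-fold higher at P21 on both scales, with medians of 3.53 and 2.53. The 3 mir-124 loci are 3 of these 6, and since they had near-equal alignments and cannot be told apart, the count, the medians and the sum may hold the same reads at all 3. In ppm they summed to 83966 at P1, 207952 at P3, 342551 at P5 and 401287 at P7, and then 348512 at P10, 419740 at P15 and 481637 at P21. Mir183 and Mir96 of the photoreceptors, 2 listed of 3 names, were both at least 2-fold higher on both scales, with medians of 2.38 and 1.38 and Mir183 the more abundant. Together they had in ppm 12045 at P1, 30337 at P3, 34755 at P5 and 39127 at P7, and then 60414 at P10, 46234 at P15 and 27585 at P21. Their sum was highest at P10, where the let-7 sum in ppm was second to P1. Mir204 and Mir211 of the pigment epithelium, of which Mir204 was the more abundant and is also expressed in the neural retina, were both at least 2-fold higher, with a median of 4.18, and in ppm 1 was, with a median of 3.17. Their sum in ppm was 23074 at P1, 38427 at P3, 29181 at P5 and 32427 at P7, and then 37891 at P10, 58495 at P15 and 50194 at P21.

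Blood and muscle miRNAs were low in ppm, and those of vessels less so. The vessel miRNAs, 3 listed of 4 names and led by Mir126a, had 1 member at least 2-fold higher at P21 and a median log2 difference of 0.42, whereas in ppm none was at least 2-fold higher and 1 was at least 2-fold lower, with a median of -0.58. Their sum in ppm was 13195 at P1, 6376 at P3, 5587 at P5 and 2457 at P7, and then 5574 at P10, 9626 at P15 and 7261 at P21, lowest at P7, whereas the let-7 sum in ppm was lowest at P15. In FPKM as deposited the vessel sum was 21511 at P7, its lowest age as for let-7, and 73858 at P10, and its part in the let-7 values was not tested. Of the blood miRNAs, 3 listed of 4 names and led by Mir142, 2 were at least 2-fold lower and the median was -1.15, and in ppm 3 were, with a median of -2.13. In ppm they summed to 483 at P1, 169 at P3, 135 at P5 and 137 at P7, and then 315 at P10, 117 at P15 and 107 at P21. Their FPKM sum as deposited was 1909 at P7, its lowest age, and 7490 at P10, its highest, and the let-7 sum was lowest and highest at the same ages. Of the muscle miRNAs, 3 listed of 5 names and led by Mir133b in mean ppm, though Mir206 was above it in FPKM at every age, 1 was at least 2-fold lower on both scales and the medians were -0.02 and -0.99. Their sum in ppm was 163 at P1, 1625 at P3, 987 at P5 and 58.8 at P7, and then 89.9 at P10, 50.7 at P15 and 77.7 at P21, highest at P3. The muscle FPKM sum as deposited was 7439 at P1, 165251 at P3, 100176 at P5 and 4840 at P7. It was above the vessel FPKM sum at P3 and P5, and its part in the let-7 values was not tested. In FPKM as deposited, 7 of the 8 lists had a higher sum at P10 than at P7, as let-7 had, all but the timing partners. Each listed marker had a level above 0 in every library.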

How the data were processed

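The authors trimmed Ion Torrent reads, mapped them to Ensembl noncoding RNAs and ran Cufflinks and Cuffdiff (2.2.1.3, build Rnor_6.0, per the submitters' notes), and deposited FPKM values for 21 pairs of ages. The value of a feature at an age was the same in every pair and was used once. The table also holds the authors' fold changes, p-values and q-values, which were not used. Values are FPKM, so a test of counts could not be used, and the single value for each age, which may merge repeat runs of 1 pool, allows no test between pairs of ages; a trend over the 7 ages was not tested. The alignments behind each value were estimated from whole-number steps of low values. The value of 1 alignment at P1 was found for 499 of 724 interval lengths and interpolated for 225. For intervals of 17 to 400 bases, 99.8% to 100% of values below 4 alignments of P1 lay within 0.005 of a sum of steps. This estimate was tested on simulated data made with equal signal per step, so the simulation could not check that assumption. Where a library had several steps, each was given equal signal in every feature, which affects its total and intervals. Shares, ratios and ppm of alignments within it hold only if all features split over the steps alike, which was not tested. Shares of FPKM do not depend on this. The members and lists were chosen with earlier results of these data known. Named miRNAs were the 9 loci, miRNAs within 10 kb, seed relatives, the 10 highest by mean FPKM, the 5 nearest profiles (mean of at least 100 FPKM) and 8 lists (timing, proliferation, neurons, photoreceptors, pigment epithelium, blood, muscle, vessels). Alternatives were scalings by miRNA total, median of ratios and TMM (trimming 30% of ratios and 5% of levels), pseudocounts of 0.1 and 10, other ages, summed loci and a filter at 100 FPKM. Added after the data were seen were levels in ppm, P15 against P3, Mir3596a and Mir3596c in the sum, leaving out intervals under 17 bases, and counting loci of 1 mature sequence as 1 by their mean (mir-124, let-7c and let-7f). Python 3.11.15, numpy 2.4.6, pandas 2.3.3 and matplotlib 3.10.9 were used.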

Additional observations from a re-analysis of the deposited data

How the results depend on the processing

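The log2 difference of the let-7 sum, P21 against P1, was 0.59 and kept this value with pseudocounts of 0.1 and 10. It was -0.0389 with miRNA-total scaling, 0.66 with median-of-ratios, 0.73 with TMM and -0.51 in ppm, or -0.0382 in ppm with the 3 mir-124 loci counted as 1. It was 0.33 for the mean of P15 and P21 against that of P1 and P3, 0.0789 for P15 against P3 and 0.52 with Mir3596a and Mir3596c added. The cause was not tested. The count of loci at least 2-fold higher, 1, was 0 with miRNA-total scaling, 0 in ppm and 0 for the means of the paired ages, and 1 in the other 5 alternatives. The let-7 share of the miRNA sum at P21, 3.06%, was 4.12% in alignments, 6.04% with the 3 mir-124 loci counted as 1, 5.16% with the let-7c and let-7f loci also counted as 1 each, and 3.82% without intervals under 17 bases. The share of Mirlet7g at P21, 52.1%, was 42.5% in alignments, with or without loci of 1 mature sequence summed. The highest sum, on day 10, was on day 3 with miRNA-total scaling, day 21 with TMM and day 1 in ppm, but day 10 in ppm with mir-124 counted as 1; leaving out each age in turn gave days 10 to 21. The lowest, on day 7, was on day 1 with TMM and day 15 in ppm with mir-124 counted either way, and leaving out each age in turn gave days 1 to 7. Only leaving out P10 moved the highest age and only leaving out P7 the lowest. With 1 value per age this was fixed in advance, so leaving out ages is no check of either result. No paired analysis was possible because there was 1 value per age. Counting error leaves out variation between animals, and the depth of libraries with several steps rests on equal signal per step: at P15 the total would be 128407 to 780170 if 1 step held all of it.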
